A study of Homo sapiens with 6 samples.

Results

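THBS1 and 9 genes of the TGF-beta signalling pathway were followed through 6 RNA-seq libraries of HT29 cells, a human colorectal adenocarcinoma line. The 10 genes (THBS1, TGFB1, TGFB2, INHBA, TGFBR1, TGFBR2, SMAD3, SMAD7, SKIL and TGFBI) were found by symbol among the 60676 genes listed. They were selected on measured values, since the set was drawn up with differences between these conditions in view, so their values are given as a description, with no p-value for any of them. A further 104 genes of the same pathway, in 7 lists by role, are given with p-values. Those lists were also drawn up with earlier results of these data known, so their counts and p-values are not independent support.

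HT29 cells, labelled wild type, were kept for 48 h in control medium (untreated), in medium lacking histidine or in medium lacking tryptophan, with 2 libraries per condition. RPMI without histidine served for one depletion and DMEM F-12 without tryptophan for the other, both with dialyzed, heat-inactivated fetal bovine serum. For these libraries the base of the control is not given in the sources used here. In proteomic depletion experiments of the same study it was complete RPMI, the base of the histidine-free medium. The bases of the 2 depleted media differ, so between them the base medium and the missing amino acid cannot be told apart. The same holds against untreated cells wherever the control had another base or another serum. The serum of the control is not given for these libraries either. Nothing in the sources says whether the 2 libraries of a condition came from separate cultures. The p-values therefore rest on the spread between libraries, which may be technical. That spread is estimated partly from other genes of similar level. The SE of a gene can thus be smaller than its own libraries would give. The study set tryptophan depletion beside histidine depletion as a reference for general amino acid stress, and the comparisons below ask how the 10 genes stood in each depletion.

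TGF-beta ligands are secreted in a latent complex and must be released before they can bind. Thrombospondin-1, the product of THBS1, is a matrix glycoprotein known to release latent TGF-beta. Active ligand joins the type II receptor TGFBR2 to the type I receptor TGFBR1, which phosphorylates SMAD2 and SMAD3. These join SMAD4 and act on target genes in the nucleus. SMAD7 and SKIL are induced by the pathway and restrain it. In the colon the pathway is known for holding back epithelial growth and for driving matrix and wound-response genes. HT29 is known to carry an inactivating mutation of SMAD4.

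The libraries held 46390819 to 64388876 recovered reads, and the recovered reads of the untreated libraries were identical in the 2 deposited tables, whose values were scaled separately. Of 12 colon epithelium markers, 10 reached a jointly scaled count of 10 in every library (GPA33 and CDX1 did not), and their summed level was 448992 to 476992 in untreated, 583477 to 616635 in histidine-depleted and 631972 to 635933 in tryptophan-depleted libraries. KRT8 was the largest term of the sum in every library, and single markers differed in direction. After histidine depletion KRT19 stood at 57635 and 62356 against 19836 and 21457 in untreated libraries, KRT20 at 34599 and 35062 against 10264 and 10759, EPCAM at 30628 and 31026 against 26653 and 28129, and CDH1 at 31015 and 30916 against 21703 and 22815. LGALS4 stood at 17513 and 19659.8 against 54147 and 56465 in untreated libraries, CDX2 at 182 and 172 against 469 and 457, and CDX1 at 0 and 0 against 21.9 and 18.9. The part of these markers in the results was not tested. Fibroblast and smooth muscle markers reached that level for 2 of 10 genes, with sums of 178 to 191, 137 to 146 and 125 to 147 in the same order, and PDGFRA and COL1A2 were at 0. Endothelial markers reached it for 0 of 6 (sums of 130 to 153, 56.0 to 66.0 and 161 to 166), and platelet markers for 1 of 5, GP1BA, with GP9 at 0 (73.6 to 126, 86.5 to 103 and 136 to 151). Leukocyte and mast cell markers reached it for 1 of 10, CD14, with KIT, TPSAB1 and CPA3 at 0 (120.2 to 149, 62.3 to 72.2 and 373 to 387). In bulk RNA, fewer cells of a type and less RNA per cell cannot be told apart.

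The 250 bases before the start of 4 of the genes are shown, because THBS1 and TGFB2 had the highest fold changes of the set after histidine depletion and shared a motif there, and because SMAD7 and SKIL are the classical feedback targets. The sequences are RefSeq promoters of GRCh38.p14, written 5′ to 3′ on the gene's strand, for THBS1 (chr15:39580829-39581078, plus strand), TGFB2 (chr1:218345086-218345335, plus strand), SMAD7 (chr18:48950966-48951215, minus strand) and SKIL (chr3:170357465-170357714, plus strand). Capitals mark a match to the TEAD motif.
THBS1: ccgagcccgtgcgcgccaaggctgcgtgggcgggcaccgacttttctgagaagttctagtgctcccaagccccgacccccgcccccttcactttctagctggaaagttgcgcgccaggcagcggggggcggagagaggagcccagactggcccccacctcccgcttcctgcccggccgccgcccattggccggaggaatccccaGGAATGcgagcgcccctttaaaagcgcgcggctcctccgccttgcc
TGFB2: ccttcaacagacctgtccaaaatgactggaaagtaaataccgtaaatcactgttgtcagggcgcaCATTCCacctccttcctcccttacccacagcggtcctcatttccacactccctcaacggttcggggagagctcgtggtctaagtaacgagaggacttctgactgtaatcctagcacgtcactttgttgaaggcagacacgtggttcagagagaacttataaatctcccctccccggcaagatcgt
SMAD7: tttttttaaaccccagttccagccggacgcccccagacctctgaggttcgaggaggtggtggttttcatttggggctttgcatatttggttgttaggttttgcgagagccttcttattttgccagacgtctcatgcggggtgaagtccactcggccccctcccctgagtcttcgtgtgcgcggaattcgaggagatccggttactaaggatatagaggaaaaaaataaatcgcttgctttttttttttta
SKIL: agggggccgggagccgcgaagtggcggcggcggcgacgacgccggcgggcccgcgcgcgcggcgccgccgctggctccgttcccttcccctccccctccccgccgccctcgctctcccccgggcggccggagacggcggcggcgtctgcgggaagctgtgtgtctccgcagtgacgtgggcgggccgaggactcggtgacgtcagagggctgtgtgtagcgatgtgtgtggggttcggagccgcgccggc

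The TEAD motif was searched as GGAATG on both strands. It began 46 bases before the start of THBS1 on the forward strand and 185 bases before the start of TGFB2 as its reverse complement, CATTCC. Among 35116 promoters of the same length, 11.9% held it. The SMAD-binding element GTCTAGAC (0.182% of promoters), the CAGA box AGCCAGACA (0.231%) and the AP-1 site, TGACTCA or TGAGTCA (4.20%), were also searched on both strands, and these letters were not in the windows of the 10 genes. The GC content of the windows was 69.6% for THBS1, 50.4% for TGFB2, 48.0% for SMAD7 and 78.4% for SKIL, beside a median of 58.0% over all promoters. A match is a description of the sequence and not a measurement of binding.

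THBS1 lies at chr15:39581079-39599466 on the plus strand (GRCh38, gencode 44). Its jointly scaled counts, which are recovered reads put on 1 scale for the 6 libraries, were 996 and 1020.5 in untreated cells, compared to 14287 and 13060.4 in histidine-depleted and 1740.4 and 1999.8 in tryptophan-depleted cells. The 3 conditions did not overlap, with untreated cells lowest and histidine-depleted cells highest. Against untreated cells the log2 fold change, given throughout with its SE and on the log2(normalized count + 1) scale, was 3.77 ± 0.055 after histidine depletion (13.6-fold) and 0.88 ± 0.060 after tryptophan depletion (1.84-fold). Both comparisons use the same untreated libraries. In direct comparison, THBS1 was 7.32-fold higher after histidine than after tryptophan depletion (log2 2.87 ± 0.059). Of the gene's exonic bases, 7.58% overlap exons on the opposite strand (FSIP1 and THBS1-AS1), and whether the counting used strand is not given in the sources used here.

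**Figure D1:**
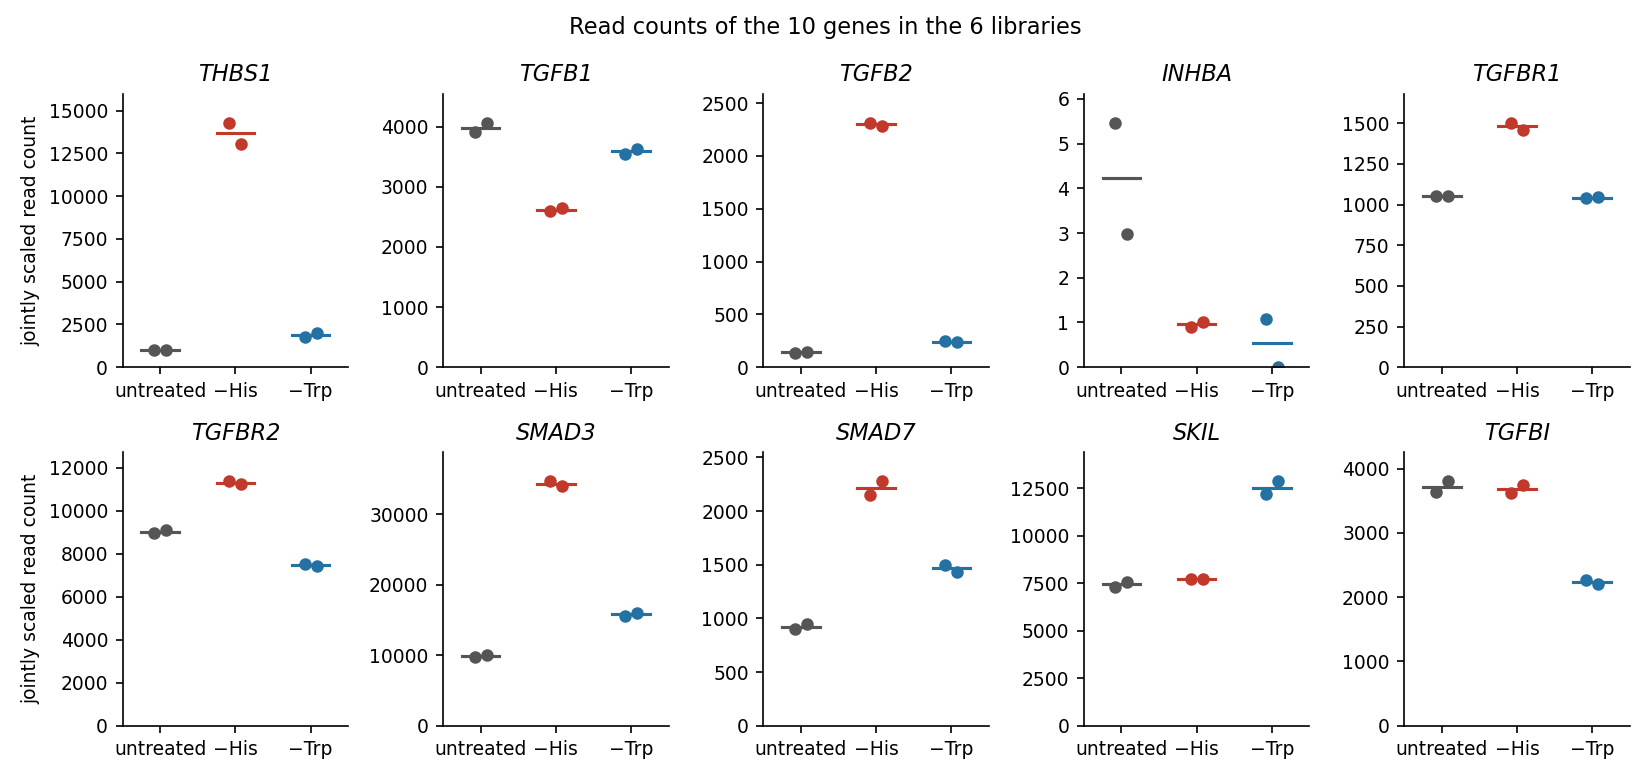
Jointly scaled read count of each of the 10 genes (vertical axes, linear and starting at 0, a different scale per gene) in untreated, histidine-depleted (−His) and tryptophan-depleted (−Trp) cells. Points are libraries and lines are group means. THBS1, TGFB2, SMAD3 and SMAD7 were highest after histidine depletion, SKIL was highest after tryptophan depletion, and INHBA held 5 reads or fewer in every library.

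Among the ligands, TGFB2 (chr1:218345336-218444619, plus strand) had the highest log2 fold change of the set. Its jointly scaled counts were 139 and 145 in untreated cells, compared to 2313 and 2284 in histidine-depleted and 243 and 241 in tryptophan-depleted cells. The conditions did not overlap and stood in the same order as for THBS1. The log2 fold change against untreated cells was 4.02 ± 0.079 after histidine depletion (16.2-fold) and 0.76 ± 0.13 after tryptophan depletion (1.69-fold). Of the exonic bases of TGFB2, 22.7% are shared with TGFB2-OT1 on the same strand and 11.6% face TGFB2-AS1, and how reads there were assigned is not given in the sources used here.

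TGFB1 (chr19:41301587-41353922, minus strand), the main TGF-beta ligand of most epithelia, stood the other way. Its jointly scaled counts were 3905 and 4062 in untreated cells, compared to 2589 and 2644 in histidine-depleted and 3539.6 and 3632 in tryptophan-depleted cells. The conditions did not overlap, and histidine-depleted cells were lowest. Its log2 fold change was -0.60 ± 0.052 after histidine depletion, -0.16 ± 0.048 after tryptophan depletion and -0.45 ± 0.043 between the depletions. Since levels of different genes compare only per length, the 3 TGF-beta ligand genes were set side by side as reads per base of the canonical transcript. TGFB2 made up 1.64% and 1.66% of the TGFB1, TGFB2 and TGFB3 total in untreated cells, compared to 29.5% and 28.8% in histidine-depleted and 3.12% and 3.03% in tryptophan-depleted cells. Per length TGFB1 stayed above TGFB2, at 16.1 ± 0.164 against 6.71 ± 0.0923 RPKM (mean ± SD, n = 2 libraries) after histidine depletion.

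INHBA (chr7:41667168-41705834, minus strand), which encodes the activin A subunit, was at the limit of detection. It held 5 and 3 reads in untreated cells, compared to 1 and 1 in histidine-depleted and 1 and 0 in tryptophan-depleted cells. A count of 0 is compatible with up to 3 reads, so a difference was not detectable at this depth. INHBA did not pass the filter on a mean normalized count of 10, and 9 of the 10 genes did.

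The 2 receptor genes stayed closer to their untreated levels than THBS1 and TGFB2. TGFBR1 (chr9:99104038-99154192, plus strand), the type I receptor kinase, had jointly scaled counts of 1050.4 and 1054 in untreated cells, compared to 1503 and 1461 in histidine-depleted and 1037 and 1045 in tryptophan-depleted cells. Histidine-depleted libraries were highest and did not overlap with the others, while the tryptophan-depleted libraries lay just under the untreated ones. The log2 fold change was 0.50 ± 0.062 after histidine depletion and -0.023 ± 0.063 after tryptophan depletion, and the sign of the second turned to 0.080 with quantile normalization.

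TGFBR2 (chr3:30606601-30694142, plus strand), the ligand-binding type II receptor, had jointly scaled counts of 8946 and 9104 in untreated cells, compared to 11371 and 11226 in histidine-depleted and 7528 and 7432 in tryptophan-depleted cells. It was highest after histidine depletion and lowest after tryptophan depletion, with no overlap. The log2 fold changes were 0.33 ± 0.049 and -0.28 ± 0.046, and 0.59 ± 0.037 between the depletions.

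SMAD3 (chr15:67063763-67195173, plus strand), the receptor-activated transcription factor of the pathway, had jointly scaled counts of 9691 and 9991 in untreated cells, compared to 34669 and 34016 in histidine-depleted and 15567 and 15991 in tryptophan-depleted cells. The conditions did not overlap, and the order was untreated, tryptophan-depleted and histidine-depleted from low to high. The log2 fold change was 1.81 ± 0.051 after histidine depletion (3.51-fold) and 0.67 ± 0.047 after tryptophan depletion (1.60-fold).

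SMAD7 (chr18:48919853-48950965, minus strand), the inhibitory SMAD that blocks the type I receptor, kept the same order with a smaller distance. Its jointly scaled counts were 899.5 and 946 in untreated cells, compared to 2153 and 2277 in histidine-depleted and 1498 and 1431 in tryptophan-depleted cells. Its log2 fold change was 1.27 ± 0.061 after histidine depletion (2.41-fold), 0.66 ± 0.061 after tryptophan depletion (1.58-fold) and 0.60 ± 0.054 between the depletions. No condition overlapped another.

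SKIL (chr3:170357342-170396835, plus strand), which encodes the co-repressor SnoN, was the only member with its highest level after tryptophan depletion. Its jointly scaled counts were 7299 and 7579 in untreated cells, compared to 7728 and 7741 in histidine-depleted and 12169 and 12854 in tryptophan-depleted cells. The histidine-depleted libraries lay just above the untreated ones, and the tryptophan-depleted libraries stood apart. The log2 fold change was 0.065 ± 0.049 after histidine depletion, which turned to -0.16 with quantile normalization, and 0.74 ± 0.047 after tryptophan depletion (1.67-fold). SKIL was 1.62-fold lower with histidine than with tryptophan depleted.

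TGFBI (chr5:136028988-136063818, plus strand), a matrix protein first found as a TGF-beta-induced transcript, had jointly scaled counts of 3639 and 3803 in untreated cells, compared to 3627 and 3754 in histidine-depleted and 2267 and 2202 in tryptophan-depleted cells. Histidine-depleted and untreated libraries overlapped, and tryptophan-depleted libraries were lowest without overlap. The log2 fold change was -0.0029 ± 0.052 after histidine depletion, or -0.12 with quantile normalization, and -0.74 ± 0.050 after tryptophan depletion. TGFBI was 1.65-fold higher after histidine than after tryptophan depletion.

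**Figure D2:**
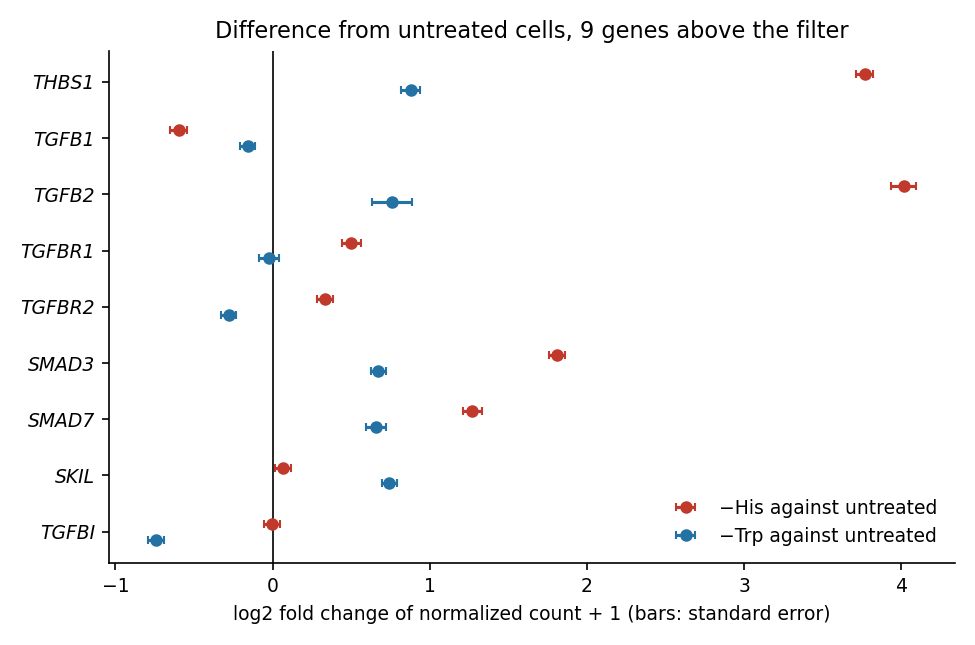
Log2 fold change of normalized count + 1 against untreated cells (horizontal axis) for the 9 genes that passed the filter, after histidine depletion (−His, red) and tryptophan depletion (−Trp, blue). Bars are the SE. The values run from -0.60 to 4.02 after histidine depletion and from -0.74 to 0.88 after tryptophan depletion, and both use the same untreated libraries.

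Past an adjusted p of 0.05 in the fit over all genes (limma), 6 of the 9 genes were higher and 1 lower after histidine depletion, where 39.1% of all genes tested were higher and 38.2% lower. After tryptophan depletion 5 were higher and 3 lower, where 36.1% of all genes were higher and 34.8% lower. Between the depletions 7 were higher and 2 lower with histidine depletion, beside 38.7% and 38.0% of all genes. The median log2 fold change of the 9 genes was 0.50, 0.66 and 0.60 in these comparisons, and that of all genes tested was 0.010, 0.013 and 0.011. Since the genes were selected on these comparisons, nothing is read from these counts.

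Levels of different genes were set side by side as RPKM, the reads per kilobase of canonical transcript scaled to library depth. In untreated cells the order from high to low was TGFBR2 (38.7 ± 0.382, SD, n = 2 libraries), SMAD3 (29.6 ± 0.0189), TGFB1 (27.8 ± 0.156), TGFBI (26.6 ± 0.242), SKIL (20.2 ± 0.0885), SMAD7 (5.36 ± 0.0713), TGFBR1 (3.15 ± 0.0617), THBS1 (2.51 ± 0.0122), TGFB2 (0.470 ± 0.00454) and INHBA (0.0136 ± 0.00594). THBS1 was therefore among the low members before depletion. After histidine depletion SMAD3 was highest (91.0 ± 1.67 RPKM), followed by TGFBR2 (42.7 ± 0.599) and then THBS1 (30.1 ± 2.06). After tryptophan depletion SMAD3 was again highest (44.9 ± 0.745 RPKM), SKIL (32.1 ± 1.17) and TGFBR2 (30.4 ± 0.349) lay close together, and THBS1 was at 4.41 ± 0.422. On this length each pair of neighbours named here differed by more than either SD. The order depends on the length used. Over all exons of each gene, the untreated levels were 23.7 RPKM for TGFB1, above SMAD3 at 19.1, and 9.36 for TGFBI. After tryptophan depletion they were 29.0 for SMAD3 and 28.3 for SKIL, and 20.2 for TGFB1 and 20.1 for TGFBR2.

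Within the thrombospondin family, THBS1 made up 58.2% and 63.2% of the per-length total of THBS1, THBS2, THBS3 and THBS4 in untreated cells. The share was 97.9% and 97.7% in histidine-depleted and 68.0% and 74.3% in tryptophan-depleted cells.

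The 2 depleted amino acids are coded at different rates in the members, a property the choice of genes did not use. Histidine codons made up 2.17% of codons in TGFB2 and 2.31% in THBS1, and 3.53% in SMAD3, the highest of the set, beside a median of 2.43% over 19755 canonical coding sequences. Tryptophan codons made up 2.12% in SMAD3 and 1.88% in THBS1, but 0.439% in SKIL and 0.293% in TGFBI, beside a median of 1.13%. SKIL, with 3 tryptophan codons, and TGFBI, with 2, differed in opposite directions from untreated cells after tryptophan depletion. Whether codon share is related to the differences was not tested.

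The genes whose pattern over the 6 libraries was closest to that of THBS1 were sought by Euclidean distance between log2(jointly scaled count + 1) values, each centred on the untreated mean, among 13286 genes. The 5 closest were PPP1R15A at a distance of 0.152, ULBP2 at 0.200, ZSCAN12P1 at 0.361, UCP3 at 0.375 and TGFB2 at 0.428. PPP1R15A encodes GADD34, the stress-induced subunit of a phosphatase that acts on eIF2alpha, and ULBP2 encodes a stress-induced ligand of the immune receptor NKG2D. PPP1R15A had jointly scaled counts of 7829 and 7954 in untreated cells, compared to 111972 and 108737 in histidine-depleted and 14769.6 and 15288 in tryptophan-depleted cells. ULBP2 had 159.6 and 173 in untreated cells, compared to 2383 and 2315 in histidine-depleted and 322 and 328 in tryptophan-depleted cells. TGFB2 was thus the 5th closest gene to THBS1 among these genes. Both were chosen with differences between these conditions in view, so the rank is a description and not independent support. Of the other members, SMAD3 ranked 434 and SMAD7 ranked 1002, while TGFB1 ranked 9529.

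**Figure D3:**
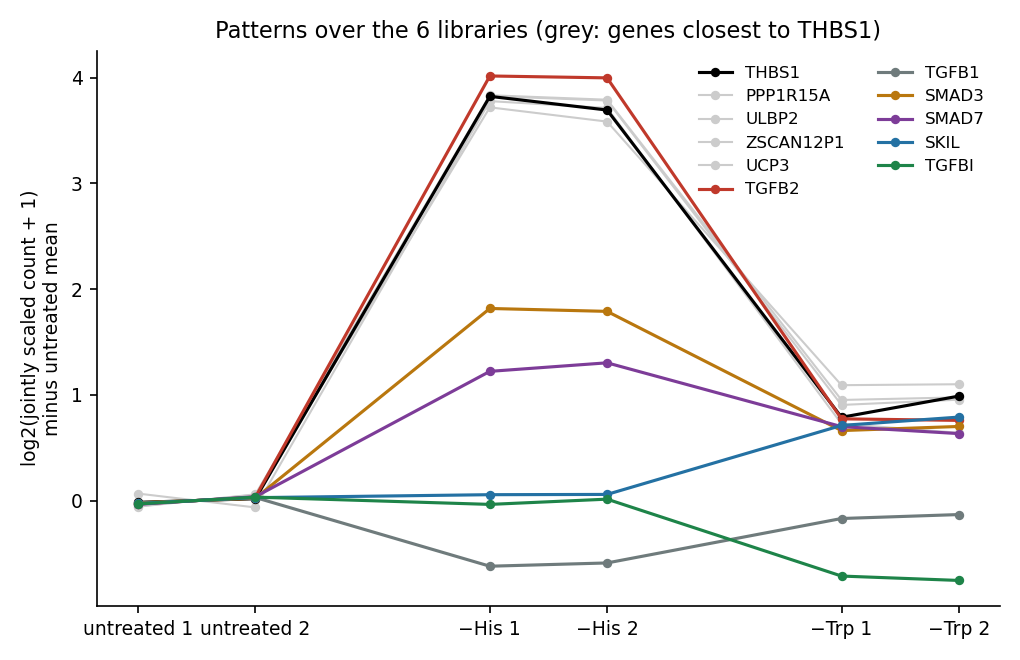
Log2(jointly scaled count + 1) minus the untreated mean (vertical axis) in each of the 6 libraries (horizontal axis) for THBS1, the genes closest to it (light grey, with TGFB2 in red) and 5 other members. THBS1, TGFB2 and the light grey genes lie together, SMAD3 and SMAD7 lie below them after histidine depletion, and SKIL and TGFBI part after tryptophan depletion.

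Of the 104 other pathway genes, 82 passed the filter for histidine depletion, of which 43 rose and 31 fell (limma, adjusted p under 0.05, median log2 fold change 0.40). For tryptophan depletion 80 passed, of which 46 rose and 21 fell (median 0.31). Of all genes tested, the percentages stood at 39.1% and 38.2%, and at 36.1% and 34.8%. The counts of each list below are to be set beside these percentages, and nothing is read from a count near them. Both comparisons use the same untreated libraries.

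**Figure D4:**
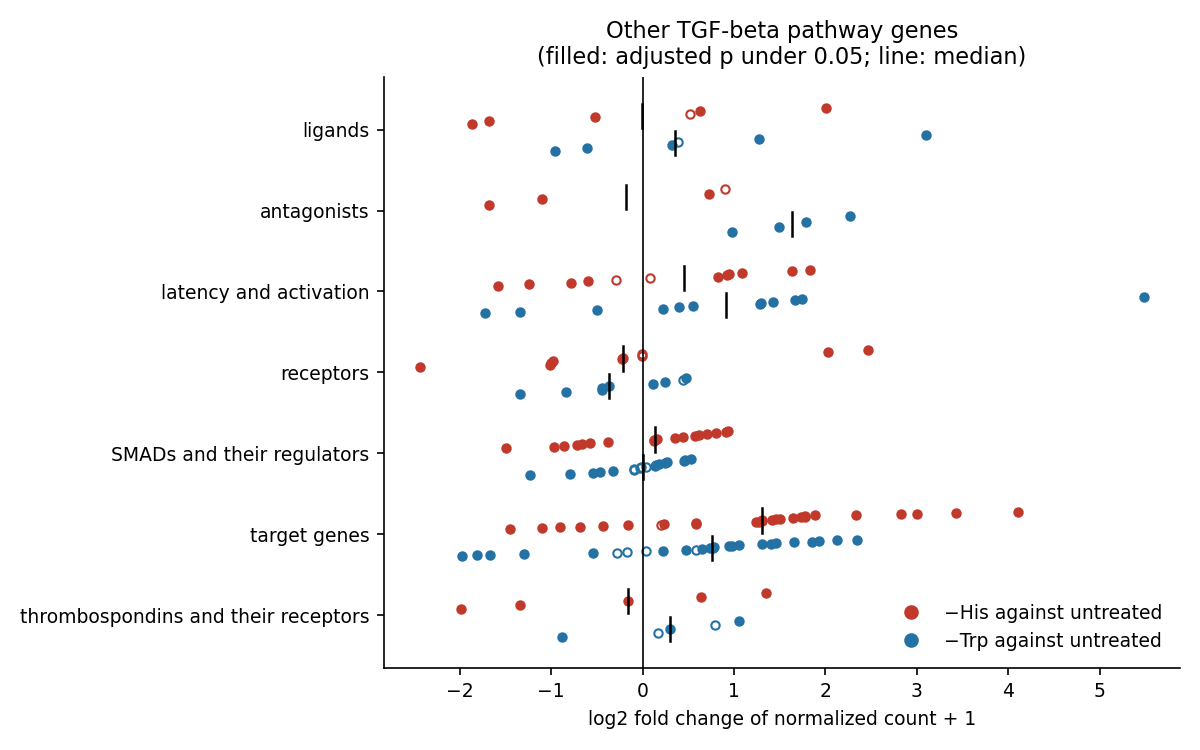
Log2 fold change of normalized count + 1 against untreated cells (horizontal axis) for the other pathway genes by list (vertical axis), after histidine depletion (−His, red) and tryptophan depletion (−Trp, blue). Filled points have an adjusted p under 0.05, open points do not, and short lines are list medians. The target genes have the highest median after histidine depletion (1.31), the antagonists have it after tryptophan depletion (1.64), and the blue point farthest to the right is LRRC32, whose untreated libraries held 1 and 0 reads.

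Of the listed target genes of TGF-beta, 19 of 27 tested rose and 6 fell after histidine depletion (median log2 1.31). Of all genes tested, 39.1% rose and 38.2% fell. After tryptophan depletion 17 of 26 rose and 5 fell (median 0.75), beside 36.1% and 34.8% of all genes. CCN2, a matricellular growth factor, went from 707 ± 1.34 normalized counts (mean ± SD) to 12157 ± 335 after histidine depletion, a log2 fold change of 4.10 ± 0.052 (limma, adjusted p = 4.39e-26), and of 1.86 ± 0.061 after tryptophan depletion (limma, adjusted p = 2.48e-61). ZEB1, a repressor of epithelial genes, went from 20.3 ± 4.95 to 228 ± 44.4 after histidine depletion (log2 3.43 ± 0.21, limma, adjusted p = 2.47e-13). TAGLN, an actin-binding protein of contractile cells, rose by a log2 of 2.34 ± 0.058 and 2.13 ± 0.055 in the 2 depletions. Of the exonic bases of CCN2, 11.9% face another gene on the opposite strand, and of those of TAGLN 38.1% are shared on the same strand and 34.1% face another gene.

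PMEPA1, a feedback inhibitor induced by TGF-beta, rose by a log2 of 1.30 ± 0.050 after histidine depletion (limma, adjusted p = 2.98e-17) and 0.77 ± 0.047 after tryptophan depletion (limma, adjusted p = 1.24e-32). COL4A1, a basement membrane collagen, rose by 2.34 ± 0.22 after tryptophan depletion (limma, adjusted p = 7.28e-19). After histidine depletion COL4A1 stood at 20 and 8 reads against 20 and 26, a log2 fold change of -0.90 ± 0.38 (limma, adjusted p = 0.0362) that was -0.37 without histidine-depleted replicate 2. It was not called in that case, by DESeq2 or edgeR, or without untreated replicate 1 (-1.02) or 2 (-0.78). Nor was it called in limma with no filter or no trend.

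Among the other ligands, 2 of 6 tested rose and 3 fell after histidine depletion, and 3 rose and 2 fell after tryptophan depletion. BMP2, a bone morphogenetic protein, rose from 289.8 ± 15.1 to 1163 ± 17.5 normalized counts after histidine depletion (log2 2.00 ± 0.079, limma, adjusted p = 4.59e-17) and by 1.28 ± 0.085 after tryptophan depletion. GDF15, a stress-induced cytokine of the family, fell from 8726 ± 819 to 2383 ± 143 after histidine depletion (log2 -1.87 ± 0.060, limma, adjusted p = 7.51e-19) and rose by 0.32 ± 0.048 after tryptophan depletion (limma, adjusted p = 1.15e-09). INHBE, the activin E subunit, held 112 and 126 reads in untreated cells, compared to 90 and 88 in histidine-depleted and 955 and 1241 in tryptophan-depleted cells. Its rise after tryptophan depletion was a log2 of 3.10 ± 0.094 (limma, adjusted p = 2.12e-65), while its log2 of -0.52 ± 0.16 after histidine depletion (limma, adjusted p = 0.0051) was not called by DESeq2.

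Of the secreted and membrane antagonists, 4 of 10 passed the filter. After tryptophan depletion the 4 rose (median log2 1.64), and after histidine depletion 1 rose and 2 fell (median -0.18). CHRD, which binds BMP ligands, rose by 2.27 ± 0.18 after tryptophan depletion (limma, adjusted p = 1.09e-24). After histidine depletion CHRD stood at 7 and 23 reads against 33 and 49 untreated (log2 -1.67 ± 0.40, limma, adjusted p = 0.000616), a call lost in limma without a trend. BAMBI, a decoy receptor, rose by 1.49 ± 0.12 after tryptophan depletion (limma, adjusted p = 1.20e-22) and fell by a log2 of 1.10 after histidine depletion (limma, adjusted p = 6.06e-06). FSTL3, an activin-binding protein, rose in both, by 0.73 ± 0.10 and 0.98 ± 0.079. FST, the best known activin antagonist, held 2 reads or fewer in every library.

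Of the genes of latency and activation, which hold or release the ligand, 6 of 12 tested rose and 4 fell after histidine depletion, and 9 rose and 3 fell after tryptophan depletion. ITGAV, the alpha-v integrin subunit that pulls active TGF-beta from its latent form, rose by 1.64 ± 0.053 after histidine depletion (limma, adjusted p = 8.64e-19) and 0.55 ± 0.047 after tryptophan depletion (limma, adjusted p = 9.05e-22). Its partners differed. ITGB6 rose by 0.92 ± 0.056 and 1.74 ± 0.051, and ITGB8 fell, with log2 fold changes of -0.59 ± 0.066 and -1.73 ± 0.075. PLAU, the urokinase protease, rose by 1.83 ± 0.11 after histidine depletion (limma, adjusted p = 2.37e-13), and 31.0% of its exonic bases face another gene. Its log2 of 0.40 ± 0.14 after tryptophan depletion (limma, adjusted p = 0.00909) was not called by DESeq2, and was 0.36 and not called without tryptophan-depleted replicate 2. LRRC32, which encodes GARP and tethers latent TGF-beta to the cell surface, was singled out after its values were seen. It held 1 and 0 reads in untreated cells, compared to 0 and 1 in histidine-depleted and 67 and 64 in tryptophan-depleted cells.

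Among the other receptors, 2 of 10 tested rose and 6 fell after histidine depletion, and 3 of 9 rose and 5 fell after tryptophan depletion. TGFBR3, the co-receptor that presents TGF-beta2 to TGFBR2, held 125 and 116 reads in untreated cells, compared to 20 and 27 in histidine-depleted and 52 and 48 in tryptophan-depleted cells. Its log2 fold changes were -2.43 ± 0.23 (limma, adjusted p = 9.31e-10) and -1.34 ± 0.19 (limma, adjusted p = 2.15e-10). ENG, the co-receptor endoglin, had log2 fold changes of -1.01 ± 0.075 and -0.44 ± 0.068, and ACVR2B, an activin type II receptor, of -0.97 ± 0.082 and -0.84 ± 0.078, and each was called.

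Of the SMADs and their regulators, 11 of 18 rose and 7 fell after histidine depletion, and 8 rose and 5 fell after tryptophan depletion. SMAD2, the partner of SMAD3, had jointly scaled counts of 3933 and 4279.9 in untreated cells, compared to 4385 and 4506 in histidine-depleted and 4217 and 4237 in tryptophan-depleted cells. Its log2 fold change after histidine depletion was 0.12 ± 0.053 (limma, adjusted p = 0.0376). It was not called by DESeq2, or in limma with no filter or no trend. Without histidine-depleted replicate 1 or 2 or untreated replicate 1 it was 0.14, 0.11 and 0.061, and not called. With quantile normalization it was -0.014. SMAD4, the common partner, rose by 0.36 ± 0.081 after histidine depletion (limma, adjusted p = 0.000346). After tryptophan depletion its log2 of 0.18 ± 0.075 (limma, adjusted p = 0.0248) was not called by DESeq2 or edgeR. The call was also lost in limma with no filter or no trend. It was 0.11 without tryptophan-depleted replicate 2 and 0.082 without untreated replicate 2, with neither called.

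SMAD1, a SMAD of the BMP branch, fell after histidine depletion, from 699 ± 56.1 to 246 ± 1.71 normalized counts (log2 -1.50 ± 0.091, limma, adjusted p = 2.00e-13), and was at -0.098 ± 0.074 after tryptophan depletion (limma, adjusted p = 0.227). ZFYVE9, which brings SMAD2 and SMAD3 to the receptor, fell after histidine depletion (log2 -0.97 ± 0.065) and rose after tryptophan depletion (0.46 ± 0.055). SMURF2, a ubiquitin ligase that works with SMAD7 on the receptor, did the reverse, at 0.92 ± 0.055 and -0.80 ± 0.055. TGIF2, a co-repressor, fell in both, at -0.38 ± 0.053 and -1.23 ± 0.053.

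Of the other thrombospondins and their receptors, 2 of 5 tested rose and 3 fell after histidine depletion, and 2 rose and 1 fell after tryptophan depletion. THBS3 fell after histidine depletion, from 253 ± 34.4 to 98.7 ± 6.62 normalized counts (log2 -1.34 ± 0.14, limma, adjusted p = 4.54e-09), and was at 0.17 ± 0.11 after tryptophan depletion (limma, adjusted p = 0.166), or 0.31 and called without untreated replicate 1. Of the exonic bases of THBS3, 29.1% face another gene. LRP1, the endocytic receptor that clears thrombospondin-1, had jointly scaled counts of 8872 and 10115 in untreated cells, compared to 2177 and 2609 in histidine-depleted and 20533 and 19171 in tryptophan-depleted cells. It fell after histidine depletion (log2 -1.98 ± 0.068, limma, adjusted p = 3.11e-18) and rose after tryptophan depletion (1.06 ± 0.049, limma, adjusted p = 7.11e-45). CD47, a cell surface receptor of thrombospondin-1, fell by 0.88 on the log2 scale after tryptophan depletion (limma, adjusted p = 4.56e-35). Its log2 of -0.16 ± 0.053 after histidine depletion (limma, adjusted p = 0.00756) was -0.13 and not called without histidine-depleted replicate 2. The call was also lost in limma without a trend.

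In direct comparison, which tests the difference between the depletions, histidine depletion gave higher values for 38 of 82 pathway genes and lower values for 33 (limma, adjusted p under 0.05, median log2 0.13), beside 38.7% and 38.0% of all genes tested. Of the target genes, 19 of 27 were higher and 4 lower, and of the antagonists 0 of 4 were higher and 3 lower. CCN2 was higher after histidine depletion by a log2 of 2.23 ± 0.066 (limma, adjusted p = 3.95e-15). LRP1 was lower, with a log2 difference of -3.06 (limma, adjusted p = 1.76e-16), as was INHBE at -3.64 (limma, adjusted p = 5.54e-15). For TAGLN the difference was 0.19 ± 0.056 (limma, adjusted p = 0.00542). It was 0.13 and 0.11, and not called, without histidine-depleted replicate 2 or tryptophan-depleted replicate 1. The call was also lost with quantile normalization (0.099) and in limma without a trend. SMAD4 stood at 0.16 ± 0.080 (limma, adjusted p = 0.0798), and at 0.25 with quantile normalization (limma, adjusted p = 0.021).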

How the data were processed

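RNA was sequenced as paired-end reads from stranded mRNA libraries of the 6 samples. Per the labels and the methods of the study, the authors used STAR 2.7.10a for alignment to GRCh38 and htseq-count 2.0.5 with gencode 38 for reads on exons, and deposited 2 tables of DESeq2-normalized gene signal, which are counts divided by size factors, 1 table per depletion with the same untreated libraries. The methods speak of protein-coding genes, while the tables list 60676 genes. Each value was a whole multiple of 1 read within 0.01 in 100% of cases, so reads were recovered, 46390819 to 64388876 per library, and for values set across tables they were put on 1 median-of-ratios scale. The floor of 3 reads for a count of 0 covers counting error only.

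The 10 genes and the 7 pathway lists were chosen with earlier results of these data known. Gene names, positions and canonical lengths came from gencode 44, which matched 60357 genes, and promoter sequences from RefSeq (GRCh38.p14). Only the 250 bases before the start were scanned, and the TGFB2 promoter was added to those shown after values were seen. Codons were counted in gencode 44 canonical coding sequences in place of protein composition.

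Within each table, log2(normalized count + 1) was tested in limma 3.58.1 (R 4.3.3) with a trend, two-sided, after a filter on a mean of 10 or more, with Benjamini-Hochberg adjustment over all genes tested and a threshold of 0.05. The direct comparison used all 6 libraries in 1 fit. SEs and p-values rest on the moderated spread of limma, which borrows from genes of similar level. Pathway genes named were SMAD2, SMAD4, PMEPA1, CCN2, GDF15 and FST (another gene of this rule is not reported here), up to 2 genes per list and depletion with the largest absolute log2 fold change among called genes with a mean of at least 100 in the higher group, and the 5 genes closest to THBS1. Alternatives were pseudocounts of 0.5 and 8, no filter or a mean of at least 50, no trend, quantile normalization, DESeq2 1.42.0 and edgeR 4.0.16 (TMM) on recovered reads, a replicate block, a limit on the fold change, another set of libraries in the fit and leaving out each library. On recovered reads edgeR called 7169 genes higher and 7111 lower without histidine, and 6490 and 6349 without tryptophan. Values were tabulated in Python 3.11.15 with pandas 2.3.3 and drawn with matplotlib 3.10.9.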

Additional observations from a re-analysis of the deposited data

Results flagged for a closer look

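Several genes lay on opposite sides of the untreated libraries in the 2 depletions. Every library of 1 depletion was above them and every library of the other below. By adjusted p under 0.05 (limma), 13 pathway genes were lower after histidine and higher after tryptophan depletion, and 7 the reverse. The share of all genes with such a pattern was not computed, so nothing is read from how often it occurs. Both comparisons use the same untreated libraries. For TGFBR1 and TGFBR2, which belong to the chosen set, values are given as a description with no p. For TGFBR1 the log2 fold changes after histidine and tryptophan depletion were 0.50 ± 0.062 and -0.023 ± 0.063 (SE), and the second, smaller than its SE, was 0.080 with quantile normalization. For TGFBR2 they were 0.33 ± 0.049 and -0.28 ± 0.046. The difference between the depletions was 0.51 ± 0.053 for TGFBR1 and 0.59 ± 0.037 for TGFBR2. Among the pathway genes that the rule names, SMURF2 was higher after histidine depletion (0.92) and lower after tryptophan depletion (-0.80).

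The other genes listed here were lower after histidine and higher after tryptophan depletion. Further genes of the lists, not named here, also lay on opposite sides, in either direction. The log2 fold changes were -1.87 and 0.32 for GDF15, -1.10 and 1.49 for BAMBI, and -0.97 and 0.46 for ZFYVE9. They were -1.98 and 1.06 for LRP1, -0.52 and 3.10 for INHBE, -1.67 and 2.27 for CHRD, and -0.90 and 2.34 for COL4A1. The value of COL4A1 after histidine depletion lost its call in DESeq2, in edgeR, and in limma with no filter or no trend. It also lost it without histidine-depleted replicate 2, untreated replicate 1 or untreated replicate 2. That of INHBE lost it in DESeq2, and that of CHRD in limma without a trend. For the pathway genes listed here the depletions were also compared directly, and the adjusted p (limma) was at most 3.30e-08, for CHRD.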

How the results depend on the processing

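Over the alternatives, 264 recomputed counts of called genes stayed within 1.5 times the reported count and 18 did not, and of the recomputed fold changes 1 changed sign among called values, SMAD2 after histidine depletion (-0.014 with quantile normalization, adjusted p = 0.753, limma). With a limit of 1 on the absolute log2 fold change, which keeps fewer genes by construction, pathway genes higher and lower numbered 24 and 14 after histidine depletion, 21 and 8 after tryptophan depletion, and 21 and 16 between the depletions. Over all genes the numbers were 3002 and 2947, 1801 and 1873, and 2914 and 2880. Members lower after histidine depletion numbered 0 with that limit and 3 with quantile normalization. Members past that limit numbered 0 higher and 0 lower after tryptophan depletion, and 3 higher and 0 lower between the depletions. Leaving out 1 library gave 40 to 44 pathway genes higher and 27 to 29 lower after histidine depletion, and 40 to 46 higher and 21 to 23 lower after tryptophan depletion. Between the depletions it gave 35 to 38 higher and 29 to 35 lower. Members numbered 6 to 7 higher after histidine depletion and 2 to 3 lower after tryptophan depletion. The lone library is then assumed to vary like the others. FSTL3 between the depletions (log2 -0.27) lost its call without any 1 of the depleted libraries. It also lost it with no filter, with no trend and with quantile normalization. Calls were gained for SMAD2 (0.097, without untreated replicate 2) and SMAD1 (-0.18, without untreated replicate 1) after tryptophan depletion, and for SMAD4 between the depletions (0.23 without histidine-depleted replicate 2, 0.25 with quantile normalization and 0.16 with the depleted libraries only).

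The deviations of same-numbered libraries correlated at 0.108 (untreated and histidine), -0.018 (untreated and tryptophan) and -0.051 (histidine and tryptophan). With 2 libraries per condition, these values cannot decide whether same-numbered libraries shared a culture or a preparation. With the replicate number as a block, 7311 genes were higher and 7121 lower after histidine depletion, beside 7149 and 6981 without it, and the counts of pathway genes and members were the same as without it. Depth limits INHBA and FST, which were too low to compare.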
